A study of Mus musculus with 6 samples.

Results

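Fast signalling between hippocampal neurons depends on glutamate receptors and on the scaffold proteins that hold them at the synapse, and 36 genes of this system were followed in the hippocampus of ageing Tg2576 mice, with and without the angiotensin-converting enzyme (ACE) inhibitor captopril. The members were a fixed list of 22 receptor genes (AMPA, kainate, NMDA, delta and metabotropic receptors) and 14 scaffold genes (the Dlg, Dlgap, Shank and Homer families). A probe set, the group of array features that measures a transcript on the array, was taken when the annotation gave it a member gene as its only symbol, and it was kept if the mean signal of at least 1 of the 3 groups of mice was 100 or higher. This found 72 probe sets of 34 genes, of which 60 probe sets of 33 genes were kept, among 23262 kept on the whole array, which covered 12325 genes by a single symbol. The 12 probe sets that were not kept included the only probe set of Shank1. Grin1 and Shank2 were not analysed here, nor was 1 probe set that Grm2 shares with another symbol.

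Glutamate released by a presynaptic terminal opens AMPA, kainate and NMDA receptors, which are ion channels built of 4 subunits, and activates metabotropic receptors, which act through G proteins. AMPA receptors carry most of the fast current, NMDA receptors admit the calcium that sets off synaptic plasticity, and metabotropic receptors tune transmission on either side of the synapse. Under the membrane, membrane-associated guanylate kinases such as PSD-95 bind the receptors, SAPAP proteins link them to Shank proteins, and Homer proteins tie Shank to group I metabotropic receptors. Synapse loss in the hippocampus is among the features of Alzheimer's disease that go along with memory decline.

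The 3 groups were male Tg2576 mice on a C57BL/6 background, labelled Tg-18mo-ACEI, Tg-18mo and Tg-12mo here. Tg-18mo-ACEI mice were 18 months old and had taken captopril at 20 mg/kg/day in their drinking water for 6 months, Tg-18mo mice were 18 months old, had drunk water without captopril and carried a high plaque load, and Tg-12mo mice were untreated, 12 months old and carried a low plaque load, which is the age at which captopril had been started. Every group carried the transgene, an amyloid precursor protein of human sequence that carries the Swedish mutation, driven by the prion protein promoter, and without non-transgenic mice the effects of age and of plaque load cannot be told apart. Each group had 2 Affymetrix MG430 2.0 gene chips, called biological replicates by the labels, each loaded with pooled hippocampal RNA of 4 mice. Whether the 2 pools of a group came from different mice is not spelled out in the sources used here.

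The precision is limited by the number of chips. With 6 chips and 3 residual degrees of freedom, p-values measured how far chips of pooled RNA scattered, a scatter that may be only technical. They do not measure the variation among single mice. Correlations of log2 signals lay between 0.987 and 0.992 within groups and between 0.958 and 0.965 across groups. The groups also differed in control probe sets. The 3'/5' ratio of β-actin was 1.45 and 1.38 in Tg-18mo-ACEI, 1.98 and 1.88 in Tg-18mo and 1.83 and 1.77 in Tg-12mo, and the 18S ribosomal RNA signal was 2214 and 2000.0, 10219 and 11144, and 2125 and 2121 in the same order of groups. Poly-A control probe sets averaged 423 to 430.0 in Tg-18mo-ACEI, 179 to 186 in Tg-18mo and 1243 to 1247 in Tg-12mo, hybridization controls 4125 to 4574, 4265 to 4542 and 9938 on both Tg-12mo chips, and the highest signal was 21934 to 23607, 24057 to 25102 and 39494 to 40190 in that order, so that the Tg-12mo chips stood apart in all 3. The part of these differences in the results was not tested. Markers of hippocampal neurons were present, with 8 of 8 CA pyramidal and 7 of 7 dentate granule neuron markers kept. Markers of neighbouring tissue differed between the groups. Of 8 choroid plexus markers, 7 were lower in Tg-18mo-ACEI than in Tg-18mo (median log2 difference -2.46) and 8 were lower than in Tg-12mo, with summed signals of 20039 to 22021 in Tg-18mo-ACEI, 25637 to 28116 in Tg-18mo and 43494 to 43804 in Tg-12mo. Of 7 meningeal and fibroblast markers, 5 were lower with captopril (median -0.96), with 3785 to 3865, 6986 to 7028 and 9051 to 9113, and 6 oligodendrocyte markers summed to 46382 to 48368, 53287 to 54907 and 73341 to 73819. In Tg-18mo against Tg-12mo, 3 choroid plexus markers were higher and 1 lower (median 0.04), although their sum was lower. In that comparison 1 meningeal and fibroblast marker was higher and 2 lower (median -0.13), and 2 oligodendrocyte markers were higher and 3 lower (median -0.19). The part of tissue composition in the results was not tested. The chips measured whole tissue, in which fewer cells of a type and less RNA per cell cannot be told apart.

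Captopril-treated mice were compared with untreated mice of the same age to ask what 6 months of ACE inhibition changed. In Tg-18mo-ACEI against Tg-18mo, the larger rises were those of the AMPA receptor subunit Gria3 (log2 difference 1.67 ± 0.08, SE, on 1 of its probe sets), the metabotropic receptor Grm5 (1.51 ± 0.05 on 1 of its probe sets), the scaffold Dlgap2 (1.20 ± 0.10) and Homer1 (1.15 ± 0.17 and 1.09 ± 0.12 on 2 of its 5 probe sets). The larger falls were those of the kainate receptor subunit Grik5 (-0.69 ± 0.07), Homer3 (-0.63 ± 0.10), the metabotropic receptor Grm2 (-0.61 ± 0.08), and the NMDA receptor subunits Grin2d (-0.59 ± 0.15) and Grin2c (-0.54 ± 0.09). Of the 60 probe sets, 19 (31.7%) were higher and 10 (16.7%) lower at an adjusted p under 0.05, while 15.9% of all tested probe sets were called higher and 17.7% lower. Their median log2 difference was 0.04, and that of all tested probe sets was -0.04. With each gene represented by its brightest probe set, 8 of 33 genes were higher (24.2%) and 9 lower (27.3%), beside 12.6% and 21.7% of all genes. Without Tg-18mo-ACEI replicate 1 or without Tg-18mo replicate 2, fewer member genes were called higher, and fewer of all tested probe sets as well. These p-values came from limma with Benjamini-Hochberg adjustment over all 23262 probe sets.

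Ageing and plaque accumulation were addressed by untreated mice of both ages. In Tg-18mo against Tg-12mo, the genes with the larger rises were Grin2d (1.17 ± 0.15), Homer1 on 1 of its probe sets (1.16 ± 0.07), Grm2 (1.14 ± 0.08), the scaffold Dlgap3 (0.94 ± 0.07), Grin2c (0.77 ± 0.09) and Grik5 (0.76 ± 0.07). The larger falls were seen for Grm5 (-1.38 ± 0.05) and Gria3 (-0.69 ± 0.08), each on 1 probe set, and for Dlgap2 (-0.61 ± 0.10). Of the 60 probe sets, 20 (33.3%) were higher and 13 (21.7%) lower, beside 25.9% and 21.5% of all tested probe sets. Of the 33 genes, 17 were higher on their brightest probe set and 6 lower, beside 28% and 21% of all genes. The median over these 33 genes was 0.24, and over all genes it was 0.06.

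Treated mice were also set against the younger mice at the age when treatment began. In Tg-18mo-ACEI against Tg-12mo, 24 of the 60 probe sets were higher (40%) and 1 was lower (1.67%), beside 22.3% and 17.7% of all tested probe sets. On the brightest probe set, 14 of 33 genes were higher and 0 lower, beside 20.1% and 20.6% of all genes. At an unadjusted p under 0.05 in limma, 0 of the 33 genes were lower, while the methods' t-test after adjustment called 0 in either direction, so that its count says nothing of falls. Without either Tg-18mo-ACEI chip, fewer member probe sets were called higher, and fewer of all tested probe sets as well. Grm2, Grin2d, Dlgap2, Dlgap3, Grid1 and Dlg4 were among the genes that were higher on their brightest probe set, with log2 differences of 0.54, 0.58, 0.59, 0.53, 0.52 and 0.44. The Grin2d call was lost without either Tg-18mo-ACEI chip and without Tg-12mo replicate 1 (adjusted p up to 0.0879). The single probe set that was lower belonged to Dlgap4. Each group entered 2 of the 3 comparisons, so the comparisons share chips and are given side by side below without a test of their likeness. The methods' own unpaired t-test, adjusted in the same way over 2 chips a group, made 3 of the 87 calls that limma made on member probe sets.

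**Figure D1:**
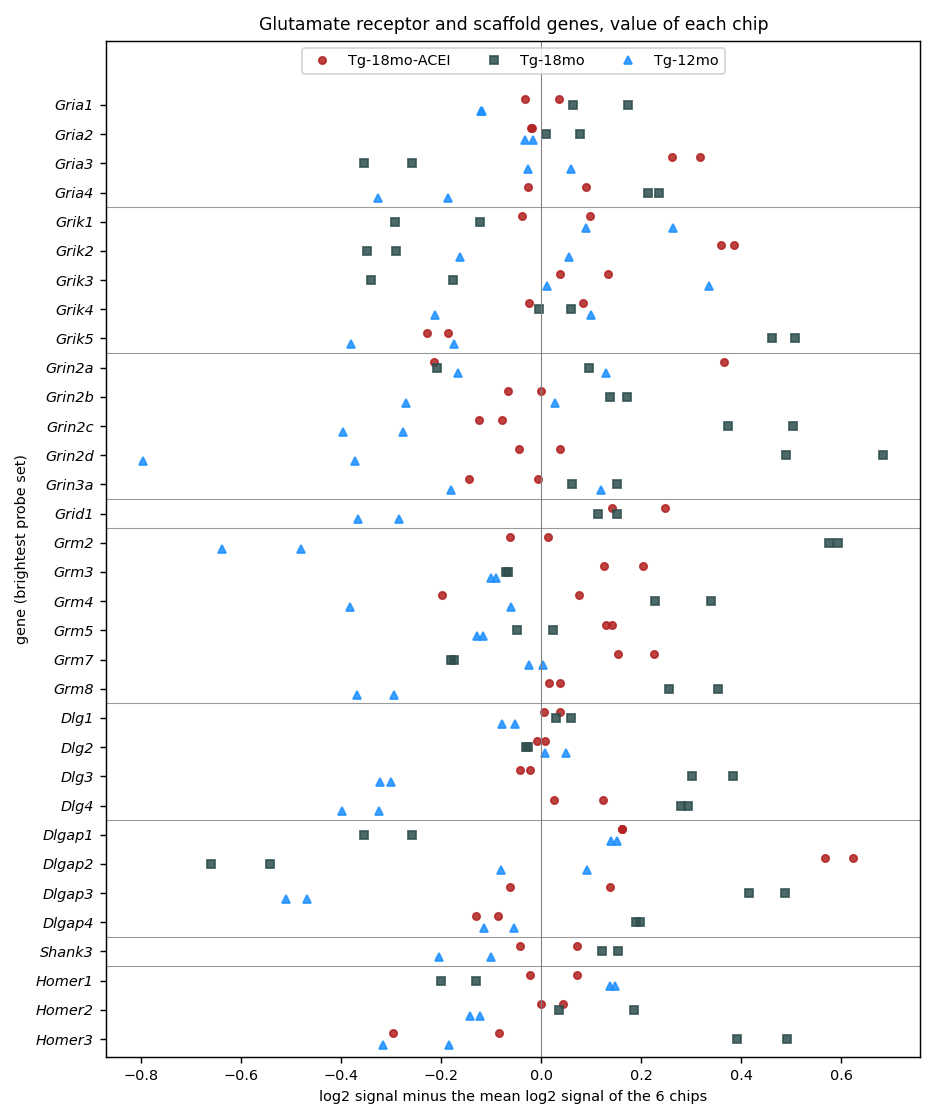
Log2 signal of the brightest probe set of each of the 33 genes on each of the 6 chips, as the difference from the mean of the 6 chips, ordered by receptor class and scaffold family. The Tg-18mo chips lie at the right-hand end for genes such as Grik5, Grin2c, Grin2d, Grm2, Dlgap3 and Homer3, and at the left-hand end for Gria3, Dlgap1 and Dlgap2.

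The AMPA receptor genes Gria1 to Gria4 encode the 4 subunits of the channel, and the clearest difference was in Gria3. Its more responsive probe set (1420563_at) read 1380.2 and 1324 in Tg-18mo-ACEI, 449.7 and 399 in Tg-18mo and 686 and 683 in Tg-12mo. The treated chips were highest, the untreated chips of the same age lowest, and no groups overlapped. The rise over Tg-18mo was 1.67 ± 0.08 (adjusted p = 4.21e-06), the difference of Tg-18mo from Tg-12mo was -0.69 ± 0.08 (adjusted p = 0.000239), and treated mice lay above Tg-12mo by 0.98 ± 0.08 (adjusted p = 5.86e-05). The brightest Gria3 probe set (1434728_at) kept the same order with smaller steps, at 4176 and 4342 in Tg-18mo-ACEI, 2910.3 and 2725 in Tg-18mo and 3418 and 3630.1 in Tg-12mo. Its differences were 0.60 ± 0.06, -0.32 ± 0.06 and 0.27 ± 0.06 in the 3 comparisons, with adjusted p of 0.000135, 0.00176 and 0.00502. Gria3 was the only one of the 16 genes with several kept probe sets whose probe sets were called alike in all 3 comparisons.

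The other AMPA subunits moved less or depended on the probe set. Gria1, a main subunit of hippocampal AMPA receptors, rose with age on its brightest probe set (1435239_at), to 10281 and 11096 in Tg-18mo, against 9063 and 9042 in Tg-12mo (0.24 ± 0.05, adjusted p = 0.00561). The other Gria1 probe set (1448972_at) was higher in treated mice, at 10378 and 9826 in Tg-18mo-ACEI, against 8322 and 8755 in Tg-18mo (0.24 ± 0.05, adjusted p = 0.00802), a call that ended without Tg-18mo replicate 1, Tg-18mo-ACEI replicate 1 or the intensity trend (adjusted p up to 0.0594). Its age difference was -0.10 ± 0.05 (adjusted p = 0.132), and with quantile normalization it was 0.12 in the other direction (adjusted p = 0.0397). Gria2, the subunit that makes the channel nearly impermeable to calcium, had a brightest probe set within -0.06 to 0.07 log2 units in every comparison. A dimmer Gria2 probe set (1434146_at) read 7401 and 7300.3 in Tg-18mo-ACEI, 6261 and 5818 in Tg-18mo and 8662 and 7404 in Tg-12mo, higher with captopril (0.28 ± 0.07, adjusted p = 0.019) and lower with age (-0.41 ± 0.07, adjusted p = 0.00227). The captopril call of this probe set was lost in 4 of 14 alternative settings (8 of processing and fit, and 6 that each left out 1 chip), among them leaving out either Tg-18mo-ACEI chip or Tg-18mo replicate 2 (adjusted p up to 0.117). Gria4 rose with age on its brightest probe set (1435722_at), to 1385 and 1363 in Tg-18mo, against 937 and 1033 in Tg-12mo (0.48 ± 0.07, adjusted p = 0.000845). This probe set stood at 1155 and 1251 in Tg-18mo-ACEI, where its difference from Tg-18mo did not pass (-0.19 ± 0.07, adjusted p = 0.071). A dimmer Gria4 probe set (1440891_at) went the other way without a call. It stood at -0.35 ± 0.15 with age and 0.42 ± 0.15 with captopril (adjusted p = 0.0841 and 0.0629). Of the 9 kept AMPA probe sets, 4 were higher and 0 lower with captopril (44.4% and 0%, beside 15.9% and 17.7% of all probe sets), and 2 were higher and 3 lower with age (22.2% and 33.3%, beside 25.9% and 21.5%). On the brightest probe set, 1 of the 4 AMPA genes was higher and 0 lower with captopril, beside 12.6% and 21.7% of all genes. The median log2 difference of these AMPA genes was -0.09, and that of all genes was -0.08.

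Among kainate receptor subunits, Grik5 and Grik2 differed between treated and untreated mice, in opposite directions. Grik5, a high-affinity subunit that forms channels only together with other kainate subunits, read 1952 and 1896 in Tg-18mo-ACEI, 3157 and 3058 in Tg-18mo and 1707 and 1967 in Tg-12mo. The Tg-18mo chips stood apart above the other 4, while the treated and the younger chips overlapped. The difference under captopril was -0.69 ± 0.07 (adjusted p = 0.000215), the rise with age was 0.76 ± 0.07 (adjusted p = 7.14e-05), and the difference between treated and younger mice was 0.07 ± 0.07 (adjusted p = 0.458). Grik2, a subunit found at mossy fibre synapses, was at 484 and 493 in Tg-18mo-ACEI, 308 and 296 in Tg-18mo and 337 and 392 in Tg-12mo. It was highest in treated mice, above Tg-18mo by 0.69 ± 0.11 (adjusted p = 0.00218) and above Tg-12mo by 0.43 ± 0.11 (adjusted p = 0.0155). The call against Tg-12mo was lost in 4 of 14 alternative settings, among them without either Tg-18mo-ACEI chip and without Tg-12mo replicate 1 (adjusted p up to 0.0839). Grik3 was lower with age (-0.43 ± 0.12, adjusted p = 0.0163), a call lost without Tg-18mo replicate 2, without Tg-12mo replicate 1 and without an intensity trend (adjusted p up to 0.0995), and Grik1 and Grik4 were not called in any comparison, with adjusted p of 0.051 or more.

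The NMDA receptor needs a GluN1 subunit and takes further subunits that set its kinetics, of which Grin2c and Grin2d showed the larger differences. Grin2c, a subunit best known from cerebellar granule cells and glia, read 467 and 483 in Tg-18mo-ACEI, 722 and 659.8 in Tg-18mo and 387 and 420.4 in Tg-12mo. It was highest in Tg-18mo, with a difference of -0.54 ± 0.09 under captopril (adjusted p = 0.00308) and 0.77 ± 0.09 with age (adjusted p = 0.000264). Of 7 cerebellar markers, 6 were kept. With captopril, Gabra6, Cbln1, Cbln3 and Pcp2 were higher and Zic1 was lower, and the summed signal was 3796 to 4034 in Tg-18mo-ACEI, 5177 to 5394 in Tg-18mo and 4558 to 4688 in Tg-12mo. The part of cerebellar tissue in the Grin2c result was not tested.

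Grin2d, which in the adult hippocampus is found mainly in interneurons, stood at 365 and 345 in Tg-18mo-ACEI, 499 and 571 in Tg-18mo and 205 and 274 in Tg-12mo, with no overlap between groups. The rise with age was 1.17 ± 0.15 (adjusted p = 0.000402), and the difference with captopril was -0.59 ± 0.15 (adjusted p = 0.0185). The captopril call did not hold when Tg-18mo replicate 2, either Tg-18mo-ACEI chip or the intensity trend was left out, with adjusted p up to 0.124. Of 8 interneuron markers, 7 were lower in treated mice, with a summed signal of 28528 to 28896 in Tg-18mo-ACEI, 34231 to 34804 in Tg-18mo and 34028 to 34760 in Tg-12mo, and their part in the Grin2d result was not tested. With age 3 of these markers were higher and 2 lower. Grin2b, the subunit that lengthens NMDA currents, gave different answers on its 2 kept probe sets. One (1442370_at) read 1234 and 1460.2 in Tg-18mo-ACEI, 916 and 816 in Tg-18mo and 948 and 841 in Tg-12mo, and was higher with captopril (0.63 ± 0.10, adjusted p = 0.00227). The brightest one (1457003_at) read 1289.9 and 1349 in Tg-18mo-ACEI, 1486 and 1519.9 in Tg-18mo and 1375 and 1120.0 in Tg-12mo, and its difference with captopril was -0.19 ± 0.09 (adjusted p = 0.15). Its rise with age (0.28 ± 0.09, adjusted p = 0.0369) was lost in 9 of 14 alternative settings, among them without either Tg-18mo chip, either Tg-18mo-ACEI chip or Tg-12mo replicate 2 (adjusted p up to 0.169). Grin2a and the 3 probe sets of Grin3a, a subunit that lowers calcium entry, were not called in any comparison. The Grin2a probe set was the member nearest above the signal limit, with a highest group mean of 104, and the nearest below was a Gria4 probe set at 94.7.

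The delta receptor Grid1 works in synapse organization more than as a channel. Its brightest probe set read 1318 and 1225 in Tg-18mo-ACEI, 1233 and 1201 in Tg-18mo and 861 and 911 in Tg-12mo. Both groups of older mice lay above the younger mice and overlapped each other, with a rise of 0.46 ± 0.07 in Tg-18mo (adjusted p = 0.00074) and 0.52 ± 0.07 in Tg-18mo-ACEI (adjusted p = 0.000498) over Tg-12mo. The dimmer Grid1 probe set (1421569_at) was not called in any comparison. It differed by 0.40 ± 0.18 with age, -0.38 ± 0.18 with captopril and 0.02 ± 0.18 between treated and younger mice (adjusted p = 0.101, 0.136 and 0.953).

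Metabotropic receptors fall into group I, here Grm5, which couples to phospholipase C at the postsynaptic side, group II, Grm2 and Grm3, and group III, Grm4, Grm7 and Grm8, which lower cyclic AMP and transmitter release. Grm2, an autoreceptor of glutamatergic terminals, read 887 and 842 in Tg-18mo-ACEI, 1312 and 1327 in Tg-18mo and 565 and 630.3 in Tg-12mo. The order was Tg-18mo, Tg-18mo-ACEI and Tg-12mo from high to low, without overlap. The rise with age was 1.14 ± 0.08 (adjusted p = 1.81e-05), the difference under captopril was -0.61 ± 0.08 (adjusted p = 0.000636), and treated mice lay above Tg-12mo by 0.54 ± 0.08 (adjusted p = 0.000849). Grm3, of the same group but also present in astrocytes, was at 2572 and 2435 in Tg-18mo-ACEI, 2131 and 2127 in Tg-18mo and 2082 and 2097 in Tg-12mo, and thus was higher in treated mice than in either other group (0.23 ± 0.05 and 0.26 ± 0.05, adjusted p = 0.00926 and 0.00428). The call against Tg-18mo did not hold once Tg-18mo replicate 2 or Tg-18mo-ACEI replicate 1 was left out (adjusted p up to 0.062). Of 8 astrocyte markers, 3 were higher and 2 lower in treated than in untreated mice, with a summed signal of 59765 to 61688 in Tg-18mo-ACEI, 56703 to 58263 in Tg-18mo and 66689 to 67292 in Tg-12mo, and their part in the Grm3 result was not tested.

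Grm5 gave the largest age-related fall of any kept member probe set. The probe set 1456119_at read 3023 and 2935 in Tg-18mo-ACEI, 1066 and 1021 in Tg-18mo and 2785 and 2641 in Tg-12mo. Signals in untreated older mice were less than those of every other chip, with differences of 1.51 ± 0.05 (adjusted p = 9.53e-07) under captopril and -1.38 ± 0.05 (adjusted p = 2.37e-06) with age. The brightest Grm5 probe set (1455272_at) did not show the fall, with 5114 and 5068 in Tg-18mo-ACEI, 4712 and 4481 in Tg-18mo and 4242 and 4273 in Tg-12mo, an age difference of 0.11 ± 0.05 (adjusted p = 0.0811) and a captopril difference of 0.15 ± 0.05 (adjusted p = 0.0385). That captopril call was lost in 7 of 14 alternative settings, among them without any one of the 4 chips of the older mice (adjusted p up to 0.219). The fall in Tg-18mo was therefore seen on 1 of the 2 Grm5 probe sets, and which transcripts each of them covers is not given in the sources used here.

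Group III receptors, which sit mainly at presynaptic release sites, were higher with age in Grm4 and Grm8 and lower in Grm7. Grm7 read 2679.7 and 2817 in Tg-18mo-ACEI, 2135 and 2126 in Tg-18mo and 2418 and 2369 in Tg-12mo, with 0.37 ± 0.05 under captopril (adjusted p = 0.000993) and -0.17 ± 0.05 with age (adjusted p = 0.0243). The age call of Grm7 was lost without either Tg-18mo chip, without Tg-12mo replicate 1 and without an intensity trend (adjusted p up to 0.0984). Grm8 read 184 and 187 in Tg-18mo-ACEI, 218 and 233 in Tg-18mo and 149 and 141 in Tg-12mo, a rise of 0.64 ± 0.15 with age (adjusted p = 0.0089) that no longer passed once Tg-18mo replicate 2 was left out (adjusted p = 0.0658). Grm4 rose by 0.51 ± 0.15 with age (adjusted p = 0.0215), a call lost without either Tg-18mo chip, without Tg-12mo replicate 1 and with quantile normalization (adjusted p up to 0.112). The captopril differences of Grm4 and Grm8 were -0.35 ± 0.15 and -0.28 ± 0.15 and did not pass (adjusted p = 0.105 and 0.192).

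Regulatory sequence is shown for the 7 receptor and Homer genes that were called with captopril on their brightest probe set and have 1 window in the RefSeq promoter table (GRCm38.p6), so that genes that moved in opposite directions can be read side by side. They were chosen after their values were seen. Each window is the 250 bases upstream of the annotated start, 5' to 3' on the strand of the gene. Capitals mark matches on either strand to GGGCGG (the GC box bound by Sp1 family factors) or TGACG (the core of the cyclic AMP response element). The windows are Grik5 at chr7:25072370-25072619 (minus strand), Grin2c at chr11:115267244-115267493 (minus), Grin2d at chr7:45866682-45866931 (minus), Grm2 at chr9:106656110-106656359 (minus), Homer3 at chr8:70282749-70282998 (plus), Grik2 at chr10:49788755-49789004 (minus) and Grm3 at chr5:9725353-9725602 (minus).
Grik5: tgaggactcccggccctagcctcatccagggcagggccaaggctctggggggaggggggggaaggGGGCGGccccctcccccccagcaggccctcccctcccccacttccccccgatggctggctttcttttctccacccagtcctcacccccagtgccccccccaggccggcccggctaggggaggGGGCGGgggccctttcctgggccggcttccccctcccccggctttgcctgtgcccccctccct
Grin2c: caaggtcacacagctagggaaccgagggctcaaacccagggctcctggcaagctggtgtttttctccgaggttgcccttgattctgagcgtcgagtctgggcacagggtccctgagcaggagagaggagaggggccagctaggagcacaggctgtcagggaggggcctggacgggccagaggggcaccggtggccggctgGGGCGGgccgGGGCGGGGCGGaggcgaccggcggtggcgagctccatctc
Grin2d: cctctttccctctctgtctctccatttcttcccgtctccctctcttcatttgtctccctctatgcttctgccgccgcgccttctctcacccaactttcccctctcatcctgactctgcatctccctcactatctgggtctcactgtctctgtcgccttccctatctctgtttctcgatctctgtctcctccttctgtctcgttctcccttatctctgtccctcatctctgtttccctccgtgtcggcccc
Grm2: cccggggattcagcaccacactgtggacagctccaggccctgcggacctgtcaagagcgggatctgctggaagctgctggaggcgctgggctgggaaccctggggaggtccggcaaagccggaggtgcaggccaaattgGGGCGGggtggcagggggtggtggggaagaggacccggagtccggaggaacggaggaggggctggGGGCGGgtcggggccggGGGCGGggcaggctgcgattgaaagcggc
Homer3: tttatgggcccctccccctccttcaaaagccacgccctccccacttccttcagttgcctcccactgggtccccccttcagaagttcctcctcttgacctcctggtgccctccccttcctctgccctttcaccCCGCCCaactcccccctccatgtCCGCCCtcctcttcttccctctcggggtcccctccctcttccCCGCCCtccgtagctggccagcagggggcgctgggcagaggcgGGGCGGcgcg
Grik2: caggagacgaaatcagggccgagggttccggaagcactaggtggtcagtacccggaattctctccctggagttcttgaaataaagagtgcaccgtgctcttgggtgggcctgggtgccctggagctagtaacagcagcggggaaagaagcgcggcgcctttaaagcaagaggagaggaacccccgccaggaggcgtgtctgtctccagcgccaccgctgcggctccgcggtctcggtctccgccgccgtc
Grm3: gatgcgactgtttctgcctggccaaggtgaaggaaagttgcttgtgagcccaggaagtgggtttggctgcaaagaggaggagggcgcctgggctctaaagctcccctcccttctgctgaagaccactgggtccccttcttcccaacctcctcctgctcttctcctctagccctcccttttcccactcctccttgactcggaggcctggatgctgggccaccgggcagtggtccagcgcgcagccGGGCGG
The scaffold genes Dlgap3 and Dlgap4 also had 1 window and were lower in treated mice. With them, 7 genes with 1 window were lower, of which 5 held a GC box, at 2 matches in Grik5 and Dlgap4, 3 in Grin2c and Grm2 and 4 in Homer3, while Grin2d and Dlgap3 held 0. Of the 2 that were higher, Grik2 held 0 and Grm3 held 1. The 2 directions overlapped in their number of GC boxes, and 0 of the 9 windows held TGACG. A GC box occurs in 32.7% of the 32851 promoter windows of this length in the table and TGACG in 17.8%. Over the listed genes, 24 of 36 had a window, and 17 of their 38 windows held a GC box and 5 held TGACG. A match of letters is a description and not a binding site.

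The membrane-associated guanylate kinases Dlg1 to Dlg4 anchor receptors at the postsynaptic membrane. Dlg3, which encodes SAP102, read 2724 and 2762 in Tg-18mo-ACEI, 3456 and 3660.3 in Tg-18mo and 2277 and 2243 in Tg-12mo. Its order was again Tg-18mo above Tg-18mo-ACEI above Tg-12mo, with -0.37 ± 0.05 under captopril (adjusted p = 0.000869) and 0.65 ± 0.05 with age (adjusted p = 3.17e-05). Dlg4, which encodes PSD-95, the main scaffold of excitatory synapses, had 3 kept probe sets that differed in direction. The brightest (1419580_at) read 1518 and 1418 in Tg-18mo-ACEI, 1692 and 1707 in Tg-18mo and 1058 and 1113 in Tg-12mo, so that it was higher with age (0.65 ± 0.06, adjusted p = 7.93e-05) and lower with captopril (-0.21 ± 0.06, adjusted p = 0.029). Another (1419581_at) read 849 and 761 in Tg-18mo-ACEI, 671 and 618 in Tg-18mo and 574 and 669.6 in Tg-12mo and was higher with captopril (0.32 ± 0.10, adjusted p = 0.0407). That call was lost in 7 of 14 alternative settings, among them leaving out any one of the 4 chips of older mice (adjusted p up to 0.209). Both of these were higher in treated mice than in Tg-12mo, by 0.44 ± 0.06 and 0.38 ± 0.10 (adjusted p = 0.000788 and 0.0183), though 1419581_at no longer passed when Tg-18mo-ACEI replicate 1 or Tg-12mo replicate 1 was left out (adjusted p up to 0.124). A dim probe set (1460261_at, 132 and 124 in Tg-18mo-ACEI, 91.3 and 87.7 in Tg-18mo and 151 and 128 in Tg-12mo) was lower with age (-0.63 ± 0.21, adjusted p = 0.0355), a call lost in 7 of 13 alternative settings, among them leaving out any chip but Tg-12mo replicate 2 (adjusted p up to 0.127). Dlg4 was the only gene with calls in both directions under captopril, and its call for a fall there was lost in 6 of 14 alternative settings, among them leaving out either Tg-18mo chip or Tg-18mo-ACEI replicate 2 (adjusted p up to 0.168).

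Dlg1 and Dlg2, which encode SAP97 and PSD-93, had bright probe sets that did not pass in any comparison, with log2 differences between -0.06 and 0.11. A dimmer Dlg1 probe set (1450768_at) was higher in both groups of older mice, with 817 and 823 in Tg-18mo-ACEI, 841 and 937 in Tg-18mo and 679 and 525 in Tg-12mo (0.46 ± 0.12 and 0.57 ± 0.12, adjusted p = 0.0155 and 0.0046). The call for treated mice was lost in 5 of 14 alternative settings, among them leaving out either Tg-18mo-ACEI chip or Tg-12mo replicate 2 (adjusted p up to 0.0733). The Dlg2 probe set 1421200_at had the next to largest difference between treated and younger mice (1.14 ± 0.33, adjusted p = 0.0234), at 120.0 and 128 in Tg-18mo-ACEI, 67.4 and 109 in Tg-18mo and 47.2 and 67.2 in Tg-12mo. It was 1 of 3 probe sets that passed the signal limit in a single group, with the dimmer Grik2 probe set and that of Grin2a. For this Dlg2 probe set the group was Tg-18mo-ACEI, at a group mean of 124, beside 57.2 in Tg-12mo. Its difference is therefore not read as a rise, although it is 1 of the 24 member probe sets counted as higher there. The call was lost without either Tg-18mo-ACEI chip and without Tg-12mo replicate 1 (adjusted p up to 0.112).

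SAPAP scaffolds, encoded by Dlgap1 to Dlgap4, join the guanylate kinases to Shank proteins, and their genes moved in both directions. Dlgap2 read 664 and 639 in Tg-18mo-ACEI, 296 and 273 in Tg-18mo and 408 and 459.5 in Tg-12mo. Treated mice were highest and untreated mice of the same age lowest, with 1.20 ± 0.10 under captopril (adjusted p = 9.05e-05), -0.61 ± 0.10 with age (adjusted p = 0.00169) and 0.59 ± 0.10 between treated and younger mice (adjusted p = 0.00246). Dlgap3, known for the compulsive grooming of mice that lack it, ran the other way, at 2138 and 1862 in Tg-18mo-ACEI, 2723 and 2592 in Tg-18mo and 1364 and 1405 in Tg-12mo (-0.41 ± 0.07 under captopril and 0.94 ± 0.07 with age, adjusted p = 0.00321 and 3.14e-05). Dlgap1, which encodes GKAP, had 5 kept probe sets, and the brightest (1429105_at) read 5597 and 5597 in Tg-18mo-ACEI, 4186 and 3915 in Tg-18mo and 5517 and 5556 in Tg-12mo. It was lower with age (-0.45 ± 0.05, adjusted p = 0.000145) and higher with captopril (0.47 ± 0.05, adjusted p = 0.000233), and treated and younger mice differed by 0.02 ± 0.05 (adjusted p = 0.821). Another Dlgap1 probe set (1436076_at) had the same 2 calls (0.36 ± 0.09 and -0.39 ± 0.09), of which that under captopril was lost once Tg-18mo replicate 2 or Tg-18mo-ACEI replicate 2 was left out (adjusted p up to 0.0925), while the other 3 were not called. Dlgap4 was lower with captopril on both probe sets (-0.30 ± 0.05 and -0.35 ± 0.07, adjusted p = 0.00204 and 0.00745), the second of these calls ending without Tg-18mo replicate 2 (adjusted p = 0.053). One of them (1426465_at) was the single member probe set lower in treated than in younger mice, at 1727 and 1484 in Tg-18mo-ACEI, 2006 and 2087 in Tg-18mo and 2191 and 2234 in Tg-12mo (-0.47 ± 0.07, adjusted p = 0.00146).

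Shank proteins are large scaffolds deeper in the postsynaptic density, and Shank3 was the member measured. It read 4248 and 3923 in Tg-18mo-ACEI, 4398 and 4494 in Tg-18mo and 3509 and 3772 in Tg-12mo, and was higher with age (0.29 ± 0.06, adjusted p = 0.00377). Its difference with captopril was -0.12 ± 0.06 (adjusted p = 0.136). The difference between treated and younger mice just passed (0.17 ± 0.06, adjusted p = 0.0495) and was lost in 9 of 14 alternative settings, among them leaving out either Tg-18mo chip, Tg-18mo-ACEI replicate 1 or Tg-12mo replicate 1 (adjusted p up to 0.257).

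Homer proteins bind group I metabotropic receptors, Shank and calcium channels of the endoplasmic reticulum, and the Homer1 gene makes long scaffold forms and a short form, induced by activity, that uncouples them. Its 5 kept probe sets fell into different patterns. On 1425710_a_at the signals were 491 and 424 in Tg-18mo-ACEI, 210.4 and 219 in Tg-18mo and 302 and 314 in Tg-12mo, and on 1421768_a_at they were 296 and 249 in Tg-18mo-ACEI, 128 and 117 in Tg-18mo and 171 and 194 in Tg-12mo. Both were highest in treated mice and lowest in untreated mice of the same age, with 1.09 ± 0.12 and 1.15 ± 0.17 under captopril (adjusted p = 0.000337 and 0.00142) and -0.52 ± 0.12 and -0.58 ± 0.17 with age (adjusted p = 0.00782 and 0.0226). The age call of 1421768_a_at was lost without either Tg-18mo chip and without Tg-12mo replicate 2 (adjusted p up to 0.105).

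On 1436387_at, by contrast, both groups of older mice lay above the younger mice, at 1394 and 1414 in Tg-18mo-ACEI, 1424 and 1305 in Tg-18mo and 637 and 580.2 in Tg-12mo. This Homer1 probe set had the largest member difference between treated and younger mice (1.21 ± 0.07, adjusted p = 2.00e-05), a rise of 1.16 ± 0.07 in Tg-18mo over Tg-12mo (adjusted p = 1.54e-05), and 0.04 ± 0.07 under captopril (adjusted p = 0.687). The brightest Homer1 probe set (1437363_at) read 3611 and 3379.9 in Tg-18mo-ACEI, 2988 and 3137 in Tg-18mo and 3776 and 3803 in Tg-12mo, lower with age (-0.31 ± 0.05, adjusted p = 0.00169) and higher with captopril (0.19 ± 0.05, adjusted p = 0.0243), the captopril call being lost when either Tg-18mo chip or Tg-18mo-ACEI replicate 1 was left out (adjusted p up to 0.136). The remaining one (1439662_at) was at 2604 and 2495 in Tg-18mo-ACEI, 2058 and 2057 in Tg-18mo and 1819 and 1890.0 in Tg-12mo and was higher in treated mice than in Tg-18mo (0.31 ± 0.05, adjusted p = 0.00274) and than in Tg-12mo (0.46 ± 0.05, adjusted p = 0.000254). Its age difference just passed (0.15 ± 0.05, adjusted p = 0.042) and was lost in 12 of 14 alternative settings, each chip left out included (adjusted p up to 0.161). With age Homer1 had 2 probe sets called higher, this one included, and 3 called lower, and which Homer1 form each probe set measures is not given in the sources used here.

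Homer3, expressed most strongly in cerebellar Purkinje cells and more weakly in the hippocampus, read 469 and 544 in Tg-18mo-ACEI, 809.7 and 756 in Tg-18mo and 507 and 463 in Tg-12mo. The Tg-18mo chips stood above the other 4, with -0.63 ± 0.10 under captopril (adjusted p = 0.00217) and 0.69 ± 0.10 with age (adjusted p = 0.000738), and treated and younger mice overlapped. The cerebellar markers given with Grin2c also summed highest in Tg-18mo, although 4 of the 6 were higher and 1 lower with captopril. The part of cerebellar tissue in the Homer3 result was not tested. Homer2 rose with age on its brightest probe set (0.24 ± 0.06, adjusted p = 0.00909), a call lost without Tg-18mo replicate 2 and without an intensity trend (adjusted p up to 0.0696). With captopril, the brightest Homer2 probe set and 1457671_at, also brighter than the next, were not called (-0.09 ± 0.06 and -0.07 ± 0.06, adjusted p = 0.274 and 0.407). The dim Homer2 probe set 1436110_at read 292 and 285 in Tg-18mo-ACEI, 183 and 192 in Tg-18mo and 214 and 222 in Tg-12mo. It was higher with captopril (0.62 ± 0.13, adjusted p = 0.00802), a call that ended when Tg-18mo-ACEI replicate 1 was left out.

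Of the Homer1 gene, the upstream window at chr13:93303507-93303756 (plus strand, GRCm38.p6, RefSeq) is shown because it is the member window with the most TGACG matches. Capitals mark them, and it held 3 of them and 0 GC boxes.
Homer1: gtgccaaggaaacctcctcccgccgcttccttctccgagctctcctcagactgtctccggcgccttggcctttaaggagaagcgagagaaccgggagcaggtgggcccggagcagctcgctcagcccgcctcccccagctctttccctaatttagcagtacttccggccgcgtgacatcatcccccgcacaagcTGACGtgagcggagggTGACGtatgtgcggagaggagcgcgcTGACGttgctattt
A further RefSeq window of this gene held neither motif.

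**Figure D2:**
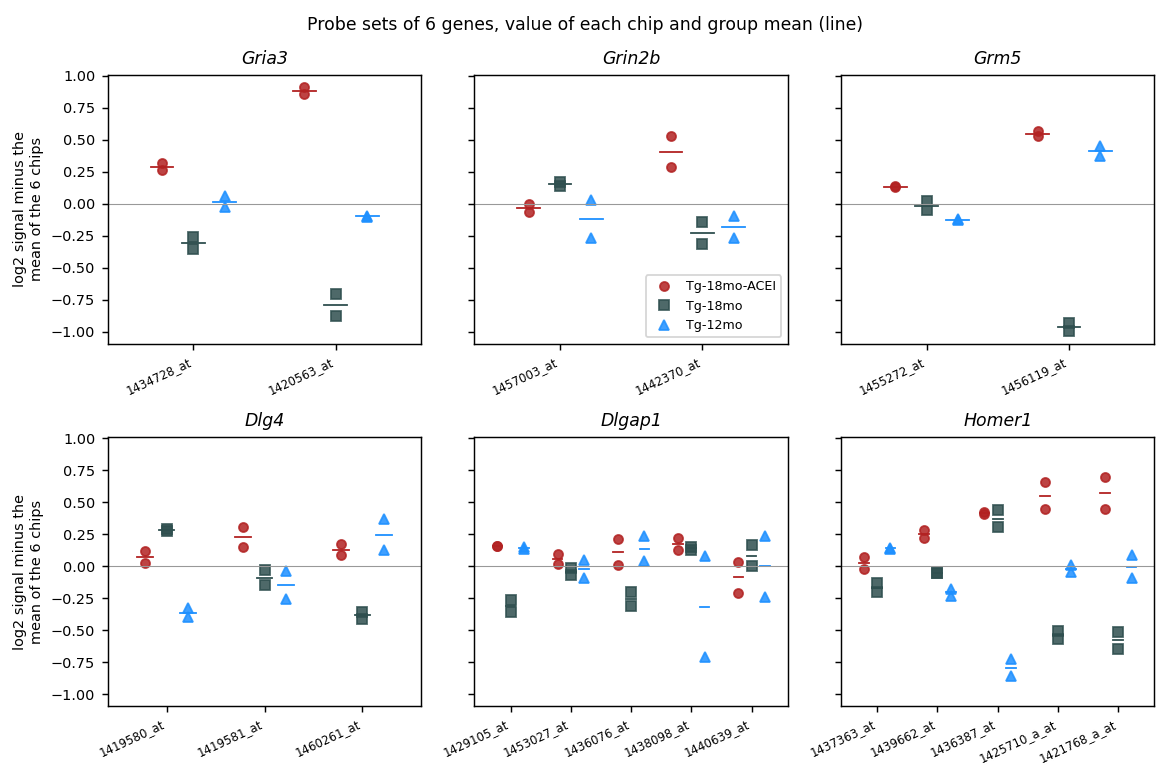
Log2 signal of each kept probe set of Gria3, Grin2b, Grm5, Dlg4, Dlgap1 and Homer1 on the 6 chips, as the difference from that probe set's mean over the 6 chips; lines mark group means. The 2 Gria3 probe sets keep 1 order of groups, whereas those of Grm5, Dlg4 and Homer1 differ, as with 1456119_at of Grm5, on which the Tg-18mo chips lie far below the other 4.

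**Figure D3:**
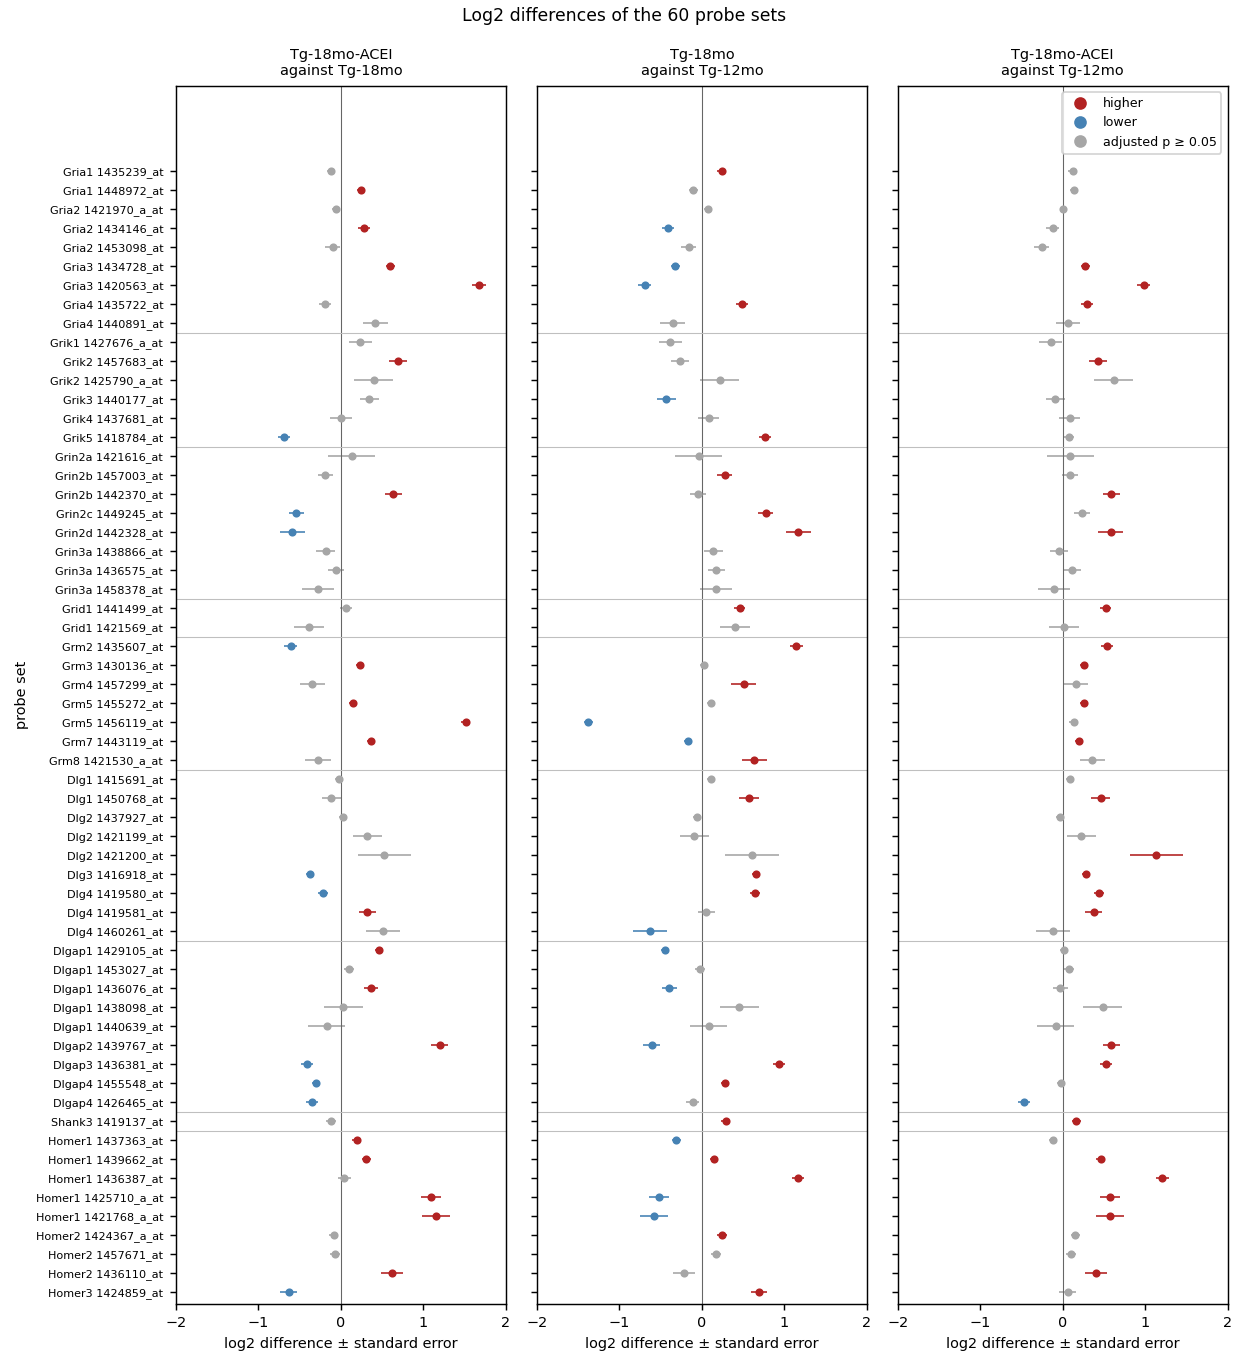
Log2 difference ± standard error of each of the 60 kept probe sets in the 3 comparisons (the group named first in each panel title minus the other), with calls higher in red, lower in blue and adjusted p of 0.05 or more in grey. In the right-hand panel 24 probe sets are red and 1, of Dlgap4, is blue.

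Probe sets of the same gene often disagreed in size. Of the 16 genes with several kept probe sets, 3 spanned more than 1 log2 unit under captopril (Gria3, Grm5 and Homer1), 3 with age (Dlg4, Grm5 and Homer1) and 2 between treated and younger mice (Dlg2 and Homer1). All kept probe sets of a gene were called alike in 3 genes under captopril (Gria3, Grm5 and Dlgap4) and in 1 in each of the other comparisons (Gria3). With the study's own limits of an unadjusted p of 0.01 or less and a difference of 2-fold or more, applied to the p-values of limma, 5 member probe sets were called under captopril, each of them higher, namely those of Gria3, Grm5, Dlgap2 and Homer1 named above. These limits called 3.03% of all tested probe sets higher and 1.06% lower. With age, 3 were higher (Grin2d, Grm2 and Homer1) and 1 lower (Grm5), beside 2.57% and 1.78% of all. Between treated and younger mice, 2 were called, both higher (Dlg2 and Homer1), beside 2.05% and 1.24%. The Dlg2 probe set passed the signal limit in Tg-18mo-ACEI alone, so its call is not read as a rise. With the same limits on the p-values of the methods' own t-test, 3 were higher and 0 lower under captopril (Gria3, Grm5 and Dlgap2, beside 1.94% and 0.447% of all probe sets), 2 were higher and 1 lower with age (Grm2 and Homer1, and Grm5, beside 1.16% and 0.748%), and 1 was higher and 0 lower between treated and younger mice (Homer1, beside 0.937% and 0.559%).

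Proteins that travel with the receptors were measured as well. Of 24 measured genes for auxiliary subunits, receptor-clustering proteins and other receptor subunits, 3 were higher and 10 lower in Tg-18mo-ACEI than in Tg-18mo on their brightest probe set (12.5% and 41.7%, beside 12.6% and 21.7% of all genes), and 13 were higher and 2 lower in Tg-18mo than in Tg-12mo (54.2% and 8.33%, beside 28% and 21%). Nptx2, a secreted pentraxin that clusters AMPA receptors, read 442 and 476 in Tg-18mo-ACEI, 874 and 911 in Tg-18mo and 439.9 and 513 in Tg-12mo (-0.96 ± 0.10 under captopril and 0.91 ± 0.10 with age, adjusted p = 0.000222 and 0.000152). The Tg-18mo chips were highest, as they were for the AMPA receptor auxiliary subunits Cacng8, Cacng4 and Cacng5. The dim Cacng8 probe set had a difference of -1.11 ± 0.32 under captopril and 1.68 ± 0.32 with age (adjusted p = 0.0289 and 0.00304). Cacng4 was lower with captopril (-0.90 ± 0.12, adjusted p = 0.00074) and Cacng5 was higher with age (1.06 ± 0.13, adjusted p = 0.000273). The probe set of Grin3b, a subunit of the NMDA receptor, passed the signal limit in Tg-12mo alone, at a group mean of 115, beside 53.6 in Tg-18mo. Its age difference (-1.09 ± 0.29, limma adjusted p = 0.0147) is therefore not read as a fall. It is 1 of the 2 genes counted as lower with age. In treated against younger mice 7 were higher and 3 lower (29.2% and 12.5%, beside 20.1% and 20.6%), with the larger rises in Cacng7 (1.07 ± 0.21) and Shisa6 (0.70 ± 0.06), both partners of AMPA receptors (adjusted p = 0.00462 and 6.39e-05).

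Among 37 measured genes of other postsynaptic density proteins, 8 were higher and 7 lower with captopril (21.6% and 18.9%), 11 were higher and 11 lower with age (29.7% each), and 15 were higher and 9 lower in treated than in younger mice (40.5% and 24.3%). Over all genes the higher and lower shares were 12.6% and 21.7% with captopril and 28% and 21% with age. In treated against younger mice they were 20.1% and 20.6%. The lower share with captopril and the higher share with age lay near those of all genes. Nlgn1, the adhesion molecule neuroligin 1 of excitatory synapses, read 1975 and 1737 in Tg-18mo-ACEI, 521 and 547 in Tg-18mo and 932 and 716 in Tg-12mo. Treated mice were highest and untreated mice of the same age lowest (1.79 ± 0.12 and -0.61 ± 0.12, adjusted p = 2.44e-05 and 0.00365), the order also seen for Gria3 and Dlgap2. Cnksr2, a scaffold that binds PSD-95, had this order too (1.26 ± 0.14 under captopril and -0.52 ± 0.14 with age, adjusted p = 0.000366 and 0.0165). Mpp2, a guanylate kinase scaffold, had the order of Dlg3, at 663 and 712 in Tg-18mo-ACEI, 965 and 1126 in Tg-18mo and 406 and 385 in Tg-12mo (-0.60 ± 0.10 under captopril and 1.40 ± 0.10 with age, adjusted p = 0.00206 and 1.97e-05). Beside these results, general neuronal markers (9 of 9 measured) summed to 88889 to 92831 in Tg-18mo-ACEI, 92764 to 96709 in Tg-18mo and 117990 to 119849 in Tg-12mo, with 3 lower under captopril and 2 higher and 5 lower with age. In treated against younger mice 2 were higher and 7 lower. The part of neuronal content in the differences was not tested.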

How the data were processed

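Hippocampal RNA was profiled on 6 Affymetrix MG430 2.0 chips, 2 for each of the 3 groups, with RNA of 4 mice pooled per chip. For each probe set the authors deposited a linear intensity, computed with GCOS and scaled to a target of 600, which is the mean of each chip after trimming 2% at each end. The depth of an array is not a read count, and its precision is limited by the number of chips.

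Intensities were log2-transformed and tested with limma 3.58.1 in R 4.3.3 (lmFit and eBayes with an intensity trend, all 6 chips in 1 model, two-sided, Benjamini-Hochberg adjustment, call at 0.05) on the 23262 probe sets with a group mean of 100 or more. Errors of log2 differences are standard errors of that fit, which had 3 residual and 5.37 prior degrees of freedom. Scripts were tested on simulated data. Gene symbols came from the platform annotation, and all 72 member probe sets had the same symbol in the RefSeq table. The member genes, the lists of related genes and the cell markers were chosen with earlier results of these data known. Chip values are given for the 10 probe sets with the largest called difference in each comparison whose chips did not overlap. They are also given for the brightest probe set of most of the genes concerned, and for many but not all other member probe sets called. From each list of related genes the 3 with the largest differences were eligible to be named. Promoter windows came from RefSeq (GRCm38.p6) and were searched with pandas 2.3.3 in Python 3.11.15, and figures were drawn with matplotlib 3.10.9.

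Alternatives were an added 32 before log2, no filter, a mean over the 6 chips of 200 or more, quantile normalization, division by the chip median, a fit on the 4 chips of a comparison, a block for the replicate number, eBayes without a trend, the methods' t-test on linear and log2 signals, the study's own limits, other choices of probe set per gene, and leaving out each chip in turn.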

Additional observations from a re-analysis of the deposited data

How the results depend on the processing

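No log2 difference called for a member probe set changed sign under any alternative of processing, fit or chips. With the mean of all kept probe sets of a gene, Dlg4 lay at 0.21 with captopril and was not called (limma adjusted p = 0.073). Its brightest probe set had been called lower there (-0.21). The Gria1 probe set 1448972_at, not called in Tg-18mo against Tg-12mo (-0.10), was called higher there with quantile normalization (0.12). Under the 3 scalings (as deposited, quantile, chip median) the median of all probe sets stayed between -0.04 and 0.06. Of 87 calls on member probe sets, 87 stayed past the threshold with 32 added, 79 without a filter, 81 of 81 with a mean of 200 or more, 79 with quantile normalization, 84 with division by the chip median, 83 with only the 2 groups compared and 70 without a trend. The replicate numbers do not pair the chips, since deviations of same-numbered chips correlated at -0.03, -0.05 and 0.03. With the replicate block 82 of 87 calls stayed, and 2 probe sets in place of 1 were lower in Tg-18mo-ACEI against Tg-12mo, as with quantile normalization, while 22 were higher. With the mean of all kept probe sets of a gene, 1 gene was lower in that comparison and 18 were higher.

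Stricter tests called far fewer. The methods' t-test on linear signals with Benjamini-Hochberg adjustment called 0 member probe sets in Tg-18mo-ACEI against Tg-18mo. It called 2 higher and 1 lower in Tg-18mo against Tg-12mo, and 0 in Tg-18mo-ACEI against Tg-12mo. Over all 23262 tested probe sets it called 79 higher and 39 lower, 636 and 560, and 118 and 134 in this order. By brightest probe set it called 0, 2 higher with 0 lower, and 0 member genes. On log2 signals it called 0 member probe sets and genes with captopril and 0 between treated and younger mice. With age it called 1 member probe set higher and 1 lower, and 1 gene higher with 0 lower. Over all tested probe sets the log2 version called 44 higher and 27 lower with captopril and 564 and 495 with age. Between treated and younger mice it called 9 and 13. The study's limits with p from limma called 5 member probe sets higher and 0 lower with captopril, and 3 higher and 1 lower with age. They called 2 higher and 0 lower between treated and younger mice, to be read beside the shares of all probe sets given above. Among these 2 was the Dlg2 probe set that passed the signal limit in Tg-18mo-ACEI alone. By brightest probe set they called 1 member gene higher with 0 lower, 2 higher with 0 lower, and 0. The t-test has 2 degrees of freedom here.

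Leaving out 1 chip gave 12 to 21 probe sets higher and 7 to 12 lower in Tg-18mo-ACEI against Tg-18mo, 16 to 20 and 9 to 14 in Tg-18mo against Tg-12mo, and 15 to 23 and 1 to 2 in Tg-18mo-ACEI against Tg-12mo. By brightest probe set, 5 to 9 genes were higher and 7 to 11 lower with captopril, 13 to 16 and 4 to 7 with age, and 10 to 14 and 0 between treated and younger mice. Without Tg-12mo replicate 2, 2 probe sets were lower in treated than in younger mice. A group left with 1 chip was assumed to vary like the others. Over all tested probe sets, the numbers called higher and lower also changed with the chip left out. In Tg-18mo-ACEI against Tg-18mo both fell without any one chip of the older mice and rose without either Tg-12mo chip. In the other comparisons both fell whichever chip was left out. The member counts of these fits are therefore not read as a change in the share of members.

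With 2 pooled chips a group, small differences were within reach only for bright probe sets. Standard errors of log2 differences were about 0.05 for the brightest members and reached 0.33 for the dim Dlg2 probe set.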

Other observations

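Genes that move glutamate out of the synapse and back into vesicles were measured on their brightest probe sets. Of 14 measured genes of glutamate transport and metabolism, 3 were higher and 2 lower in Tg-18mo-ACEI than in Tg-18mo (21.4% and 14.3%, beside 12.6% and 21.7% of all genes), 4 higher and 5 lower in Tg-18mo than in Tg-12mo (28.6% and 35.7%, beside 28% and 21%), and 6 higher and 4 lower in Tg-18mo-ACEI than in Tg-12mo (42.9% and 28.6%, beside 20.1% and 20.6%). Slc17a7, the vesicular glutamate transporter of hippocampal excitatory terminals, read 3623 and 3647 in Tg-18mo-ACEI, 4149.6 and 4315 in Tg-18mo and 1748 and 1696 in Tg-12mo (log2 difference with age 1.30 ± 0.05, SE, limma adjusted p = 2.19e-06). Both groups of older mice lay far above the younger mice. Slc1a3, the glial glutamate transporter GLAST, was higher with captopril (0.47 ± 0.07, adjusted p = 0.00119) and lower with age (-0.61 ± 0.07, adjusted p = 0.000164). Slc7a11, the cystine/glutamate exchanger, was higher with captopril (1.11 ± 0.24, adjusted p = 0.00913), and Slc38a3, a glutamine transporter, was lower (-0.64 ± 0.09, adjusted p = 0.000933).

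Of 21 measured genes of group I metabotropic signalling, 4 were higher and 3 lower with captopril (19% and 14.3%), 7 higher and 8 lower with age (33.3% and 38.1%), and 6 higher and 6 lower in treated than in younger mice (28.6% each), to be read beside the shares of all genes in the paragraph above. Trpc5, a cation channel opened downstream of phospholipase C, read 642 and 691 in Tg-18mo-ACEI, 183 and 200.2 in Tg-18mo and 288 and 293 in Tg-12mo (1.80 ± 0.11 with captopril and -0.60 ± 0.11 with age, adjusted p = 1.44e-05 and 0.00253). Plcb1, a phospholipase C of these receptors, was higher in both groups of older mice than in Tg-12mo (0.68 ± 0.06 in Tg-18mo-ACEI and 0.67 ± 0.06 in Tg-18mo, adjusted p = 5.56e-05 and 4.69e-05). Ryr1, a calcium release channel with a dim probe set, was lower with captopril (-0.94 ± 0.25, adjusted p = 0.0206) and higher with age (1.85 ± 0.25, adjusted p = 0.000483).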
